A study of Homo sapiens and Mus musculus with 18 samples.

Results

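The genes described here make cholesterol and fatty acids or sense sterol levels. The list held 29 genes chosen by name, in 4 roles: 7 enzymes of the mevalonate steps (ACAT2, HMGCS1, MVK, PMVK, MVD, IDI1, FDPS), 11 enzymes from squalene to cholesterol (FDFT1, SQLE, LSS, CYP51A1, TM7SF2, MSMO1, NSDHL, HSD17B7, EBP, SC5D, DHCR7), 4 genes of sterol sensing and transport (INSIG1, SREBF1, SREBF2, STARD4) and 7 genes of fatty acid synthesis and desaturation (ACLY, ACACA, FASN, SCD, ELOVL6, FADS1, FADS2). Of the 29, 28 were measured, among 63677 gene IDs in the files of single libraries and 56299 in a table of human samples. ACACA, the cytosolic acetyl-CoA carboxylase, is not analysed here because the ID paired with its symbol was in neither set. All 28 passed the filter on low counts in both sets.

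Cells build cholesterol and fatty acids from acetyl-CoA. The transcription factors SREBP-2 (gene SREBF2) and SREBP-1 (gene SREBF1) raise sterol and fatty acid synthesis genes. The protein SCAP carries them from the endoplasmic reticulum to the Golgi for cleavage when sterols are scarce, and INSIG proteins hold SCAP back when sterols are plentiful. Oxysterols also act through liver X receptors, which raise SREBF1, cholesterol exporters and the ubiquitin ligase gene MYLIP. Serum brings lipoproteins and fatty acids, so the lipid that cells receive is part of what differs between media. Mesothelium is the cell layer that covers the organs and lines the body cavities.

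RNA was sequenced after poly-A selection from cells made from 1 human embryonic stem cell line, WA09. Every group came from splanchnic mesoderm, the mesoderm next to the gut, made in 4 days with WNT3A and BMP4 in a chemically defined medium whose listed parts include bovine albumin, IGF-I, heregulin, Activin A and FGF2. MesoT, the mesenchymal form of mesothelium, was then made in the defined medium with 25 ng/ml WNT3A, 50 ng/ml BMP4 and 4 µM retinoic acid and collected at day 18 or day 22. MesoT FCS were MesoT grown to passage 4 in alpha MEM with 10% fetal bovine serum and 8 ng/ml FGF2. Mesothelium-like cells (MLC), the epithelial form, were made by replating splanchnic mesoderm in the defined medium without FGF2 and Activin A and with 20 µM SB431542, an inhibitor of TGF-beta family type I receptors, and 4 µM retinoic acid, for 18 days in total. MesoT-derived MLC were MesoT replated in that MLC medium, for a time the labels do not give. Smooth muscle was splanchnic mesoderm left in culture for 16 to 18 days, in a medium the labels do not name. Of smooth muscle there was 1 library, and of every other group there were 2. No label says that libraries of a group came from separate cultures, so p-values measure the spread between these libraries, which may be technical. In bulk RNA, fewer cells of a type and less RNA per cell cannot be told apart. Serum, FGF2, the basal medium and passage changed together between day 18 MesoT and MesoT FCS. WNT3A, BMP4 and retinoic acid were listed for day 18 MesoT but not for MesoT FCS. The effects of all of these cannot be told apart.

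Counts came in 2 sets, each normalised apart. The one-library files held day 18 MesoT, MesoT FCS, MLC and smooth muscle, with totals of 21148477 to 28982850 counts, and 65709545 and 70679258 counts for MLC. The human table held day 18 MesoT, day 22 MesoT and MesoT-derived MLC, with totals of 24137663 to 31435480 counts. Levels are given in CPM (counts scaled to a library size of 1000000 with TMM factors), differences as log2 fold changes ± standard error, and calls are edgeR quasi-likelihood tests at a Benjamini-Hochberg adjusted p under 0.05 over all genes tested. CPM carries no correction for gene length, so levels of different genes are not ranked. Non-overlap of called genes between groups describes their libraries. It is no further support, since a call makes it likely. The share of all genes without overlap is not given for the one-library files. Day 18 MesoT is in both sets, and its counts differed between them. For 25 of the 28 genes the log2 CPM of the sets differed by less than 0.5 in each replicate. FDPS lay outside with the table minus the one-library files at -0.56 and -0.68, as did CYP51A1 at 0.86 and 0.61 and ELOVL6 at 0.42 and 0.51. The comparisons with day 18 within a set share the same 2 control libraries. The 10 mesothelium markers summed to 2723 to 6282 CPM over all libraries and none was at 0. In the human table KRT8 had 1518 to 2860 CPM and KRT18 629 to 1132 CPM, so the sum mostly follows these 2 genes. MSLN had 0.591 to 25.8 CPM and CALB2 0.333 to 6.61 CPM there. The 6 endothelium markers summed to 7.43 to 334 CPM, with PECAM1 at 0 in every library, and the 6 neural markers to 3.91 to 77.6 CPM, with SOX1 at 0 in every library and other markers of both lists detected.

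Antisense and overlapping transcripts limit some of these genes, since the strand setting of the counting is not given in the sources used here. RUSC1-AS1, which overlaps FDPS, had 81.4 and 60.7 CPM in the day 18 one-library files and 7.50 and 8.33 CPM in the table for the same labelled samples. In the MLC files it had 4.28 and 3.99 CPM, with a log2 fold change of -4.10 ± 0.23 against day 18 (edgeR adjusted p = 0.000357). STARD4-AS1, IDI2-AS1 and SREBF2-AS1, antisense to or overlapping STARD4, IDI1 and SREBF2 by position, were also called lower in MLC than at day 18, with log2 fold changes of -6.49, -5.38 and -4.35. These too differed between the sets for the same labelled day 18 samples. IDI2-AS1 had 9.73 and 7.35 CPM in the one-library files and 0.037 and 0 CPM in the table. STARD4-AS1 had 170 and 269 CPM against 43.2 and 73.4 CPM, and SREBF2-AS1 15.8 and 9.94 CPM against 6.62 and 8.29 CPM. Whether the MLC files were counted with the setting of the other one-library files was not tested. MLC comparisons are therefore also given with day 18 counts from the table where such a value exists. Other partners by position are TCP1 of ACAT2, MMAB of MVK, RAI1 of SREBF1 and the neighbours FADS1 and FADS2, and FDPS, CYP51A1, HSD17B7 and SCD have like-named pseudogenes, so their values carry the same uncertainty.

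Promoter windows are shown because SREBPs act on these genes through short sequences near the start site, commonly beside a CCAAT box bound by NF-Y. RefSeq windows (GRCh38.p14, 250 bases before to 50 after a start, 300 bases) were found for 25 of the listed genes, in 34 windows; ACAT2, FDFT1, SQLE and FASN had no entry. Capitals mark the sterol regulatory element TCACNCCAC and the CCAAT box, each searched on both strands, so ATTGG is a CCAAT box on the other strand. Each window is written 5′ to 3′ on the gene's strand. One window shown is that of SREBF2 (chr22:41832855-41833154, plus strand), the one window of the list with the sterol regulatory element in this spelling. The others are of HMGCS1 (chr5:43313363-43313662, minus strand), STARD4 (chr5:111512486-111512785, minus strand) and SCD (chr10:100346983-100347282, plus strand). These 3 are called genes, and each window shown for them holds 2 CCAAT boxes, which is not so for all called genes.
SREBF2: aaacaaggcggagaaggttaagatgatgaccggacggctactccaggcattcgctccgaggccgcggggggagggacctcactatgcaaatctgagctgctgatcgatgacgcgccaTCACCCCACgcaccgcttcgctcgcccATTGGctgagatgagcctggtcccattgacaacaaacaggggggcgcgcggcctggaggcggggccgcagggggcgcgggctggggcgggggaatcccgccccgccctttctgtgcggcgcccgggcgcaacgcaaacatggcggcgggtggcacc
HMGCS1: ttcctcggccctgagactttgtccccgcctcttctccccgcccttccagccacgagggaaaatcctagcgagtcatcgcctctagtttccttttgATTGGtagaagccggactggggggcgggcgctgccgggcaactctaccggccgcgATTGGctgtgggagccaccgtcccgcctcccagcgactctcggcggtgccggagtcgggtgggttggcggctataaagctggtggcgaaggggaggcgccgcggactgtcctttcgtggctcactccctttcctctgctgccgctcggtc
STARD4: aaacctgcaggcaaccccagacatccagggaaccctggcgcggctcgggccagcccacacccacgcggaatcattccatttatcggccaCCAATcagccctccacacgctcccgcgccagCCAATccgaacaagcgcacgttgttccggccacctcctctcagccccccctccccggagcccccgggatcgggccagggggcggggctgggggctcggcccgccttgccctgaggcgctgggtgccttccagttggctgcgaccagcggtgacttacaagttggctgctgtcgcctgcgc
SCD: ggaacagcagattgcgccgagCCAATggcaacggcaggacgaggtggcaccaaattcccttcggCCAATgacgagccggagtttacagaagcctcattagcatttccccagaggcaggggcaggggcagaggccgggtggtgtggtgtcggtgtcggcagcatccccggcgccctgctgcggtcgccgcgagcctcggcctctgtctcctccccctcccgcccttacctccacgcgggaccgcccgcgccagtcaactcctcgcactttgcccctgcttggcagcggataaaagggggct

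A CCAAT box stood in 24 of the 34 windows (70.6%, 20 genes), against 34.6% of all 35116 windows of that length. Among the other called genes, the windows of PMVK, ELOVL6 and SREBF1 held none and that of TM7SF2 held 1. Those of HSD17B7 and ACLY held 2 each and that of EBP held 3. A further HMGCS1 window, not shown, held none. The sterol regulatory element stood in 1 of the 34 (2.94%), against 1.13% of all windows. The E-box CACGTG, which reads the same on both strands and shares no full match with the other motifs, stood in 4 windows of 3 genes, INSIG1, LSS and SC5D (11.8% of windows, against 7.26% of all). A match is a description of letters, and a gene without one may still be a target.

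MesoT FCS and day 18 MesoT show how the list differed between serum medium and the defined medium, which also differed in listed factors and passage. In MesoT FCS, 3 of the 28 genes were called higher (PMVK, ACLY and FASN) and 3 lower (HMGCS1, TM7SF2 and STARD4), while 13.0% of all 23049 genes tested were called higher and 14.4% lower. The 3 and 3 of 28 are near this background. The median log2 fold change of the 28 was 0.29, against -0.16 for all genes tested.

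HMGCS1, the enzyme that makes HMG-CoA at the head of the mevalonate pathway, had 262 and 218 CPM at day 18 and 125 and 72.6 CPM in MesoT FCS. Both serum libraries lay below both day 18 libraries, a log2 fold change of -1.28 ± 0.33 or 2.43-fold lower (edgeR adjusted p = 0.0369). STARD4, which carries cholesterol through the cytosol and is an SREBP-2 target, had 130 and 88.2 CPM at day 18 and 52.4 and 35.1 CPM in serum. Its groups did not overlap either, at -1.31 ± 0.32 (adjusted p = 0.03). Its antisense partner STARD4-AS1 fell too, from 170 and 269 CPM to 60.9 and 99.9 CPM (log2 fold change -1.45 ± 0.32, adjusted p = 0.0236), and reads of the 2 may not be told apart. TM7SF2, a sterol reductase of the late pathway, had 52.2 and 35.1 CPM at day 18 and 18.4 and 21.0 CPM in serum, again without overlap (-1.15 ± 0.25, adjusted p = 0.0221).

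FASN, the fatty acid synthase, had 373 and 272 CPM at day 18 and 831 and 923 CPM in MesoT FCS. It was 2.72-fold higher in serum medium, with no overlap (log2 fold change 1.44 ± 0.24, adjusted p = 0.0121). ACLY, which makes cytosolic acetyl-CoA from citrate for both pathways, had 378 and 221 CPM at day 18 and 675 and 870 CPM in serum (1.37 ± 0.31, adjusted p = 0.0267). PMVK, the phosphomevalonate kinase, had 19.4 and 18.6 CPM at day 18 and 31.1 and 33.0 CPM in serum (0.75 ± 0.18, adjusted p = 0.0288). For both genes each serum library exceeded each day 18 library. Mevalonate enzymes called higher and called lower thus stood side by side in the same libraries.

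The other 22 genes missed the threshold in this comparison. LSS, lanosterol synthase, came nearest, with 129 and 68.6 CPM at day 18 and 240 and 198 CPM in serum (1.15 ± 0.34, adjusted p = 0.0542). SC5D and HSD17B7, both late sterol enzymes, had log2 fold changes of -1.11 ± 0.41 and -0.86 ± 0.32. SREBF1 had 129 and 66.8 CPM at day 18 and 144 and 221 CPM in serum (0.90 ± 0.36, adjusted p = 0.111). SREBF2 stood at -0.03 ± 0.23 and INSIG1 at 0.25 ± 0.23, and neither passed the test. SCD, the stearoyl-CoA desaturase, and its fellow desaturases FADS1 and FADS2 had log2 fold changes of 0.12, -0.17 and 0.18.

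**Figure D1:**
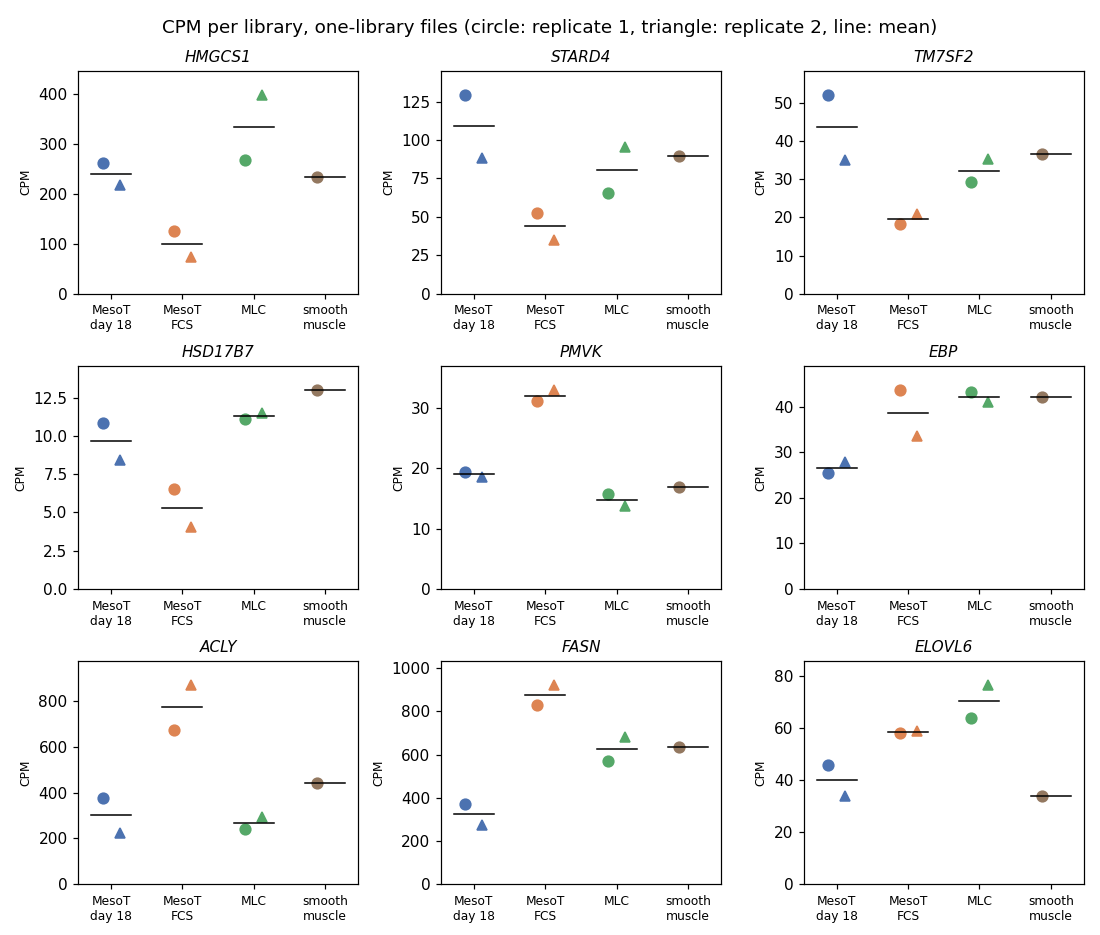
CPM of 9 genes in each one-library file (vertical axes from 0; circles replicate 1, triangles replicate 2, lines group means) for day 18 MesoT, MesoT FCS, MLC and the single smooth muscle library. HMGCS1, STARD4 and TM7SF2 are lowest in the 2 MesoT FCS libraries, while ACLY and FASN are highest there.

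All 6 calls rest on few libraries. Without MesoT FCS replicate 2 none of the 28 was called, HMGCS1 stood at -0.94 (adjusted p = 0.124) and FASN at 1.37 (adjusted p = 0.0509). Without MesoT FCS replicate 1, TM7SF2, STARD4, ACLY and PMVK were no longer called, and without either MLC replicate, which enter only through the shared spread, FASN alone remained called. Omitting day 18 replicate 1 ended the calls of HMGCS1 and STARD4, omitting replicate 2 those of HMGCS1 and PMVK, and the signs of all 6 held. Scaling by total counts, without TMM, moved the median of all genes by -0.51 and turned the split to 2 higher (ACLY, FASN) and 6 lower (HMGCS1, IDI1, TM7SF2, HSD17B7, SC5D, STARD4). The median of the 28 then was -0.21, and it stayed above that of all genes by 0.46, against 0.45 with TMM. Cell cycle genes moved with this comparison: 7 of 10 were called higher, with summed levels of 1269 and 1509 CPM against 412 and 655 CPM. The 8 mesenchyme markers summed to 75719 and 86594 CPM against 46284 and 20048 CPM. Of the mesothelium markers 1 was called higher and 3 lower. Endothelium markers had 3 of 5 tested called lower, with sums of 42.7 and 7.43 CPM against 273 and 98.8 CPM, and stratified keratinocyte markers 2 of 6 lower, at 2.28 and 1.396 CPM against 13.8 and 11.4 CPM. Smooth muscle markers summed to 6199 and 1576 CPM against 1655 and 279 CPM with 1 of 8 called higher, mesenchyme markers had 1 called each way, and hepatocyte and neural lists had 1 lower each. The part of these lists in the result was not tested.

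MesoT-derived MLC were set against the 4 MesoT libraries of the table. The groups differed in replating, in WNT3A, BMP4, SB431542, FGF2 and Activin A as listed, and possibly in time. The effects of these cannot be told apart. Of the 28 genes, 26 had a positive log2 fold change, 4 were called higher (SREBF1, FASN, SCD, ELOVL6) and 0 lower, while 6.63% of all 22316 genes tested were called higher and 3.32% lower. In 19 of the 28, both MesoT-derived MLC libraries lay above all 4 MesoT libraries, which was so for 23.0% of all genes tested. Same-numbered day 18 and day 22 libraries deviated from their group means alike, with a correlation of 0.56 over all genes. The 4 MesoT libraries may therefore not be separate, while the reported fit and this count take them as separate. At an unadjusted p under 0.05, 15 of the 28 passed, against 30.9% of all genes in either direction. The median log2 fold change was 0.79 for the 28 and -0.05 for all genes. By role it was 0.47 for the mevalonate steps, 0.70 for the sterol steps, 0.93 for sensing and transport and 1.14 for fatty acid synthesis.

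SCD, which puts the first double bond into saturated fatty acids, had 533 and 248 CPM at day 18, 470 and 278 CPM at day 22 and 1607 and 1239 CPM in MesoT-derived MLC. Its level was 3.72-fold higher there (log2 fold change 1.90 ± 0.37, edgeR adjusted p = 0.0362). SREBF1 had 152 and 71.2 CPM at day 18, 105 and 65.9 CPM at day 22 and 299 and 319 CPM in MesoT-derived MLC (1.66 ± 0.33, adjusted p = 0.0377). For both genes the MesoT-derived MLC libraries stood clear of all 4 MesoT libraries. FASN had 476, 318, 416 and 341 CPM in the MesoT libraries and 933 and 861 CPM in MesoT-derived MLC (1.21 ± 0.23, adjusted p = 0.0338). ELOVL6, which lengthens palmitate to stearate, had 61.3, 48.3, 56.0 and 50.1 CPM in MesoT and 122 and 105 CPM in MesoT-derived MLC (1.07 ± 0.16, adjusted p = 0.0218). Again no library of one group reached the other.

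Several further members had fold changes of similar size with adjusted p just above the threshold. FADS2, the delta-6 desaturase, had 616 and 307 CPM at day 18, 502 and 268 CPM at day 22 and 1341 and 945 CPM in MesoT-derived MLC (1.44 ± 0.38, adjusted p = 0.0664). LSS had 163, 82.7, 163 and 84.7 CPM in MesoT and 416 and 288 CPM in MesoT-derived MLC (1.51 ± 0.37, adjusted p = 0.057). DHCR7, which makes the last reduction to cholesterol, had 188, 91.8, 134 and 87.1 CPM in MesoT and 359 and 267 CPM in MesoT-derived MLC (1.33 ± 0.34, adjusted p = 0.059). In each of these 3 genes the MesoT-derived MLC libraries exceeded every MesoT library. TM7SF2 stood at 0.89 (adjusted p = 0.0508), EBP, a sterol isomerase, at 0.70 (0.0613 adjusted) and SREBF2 at 0.87 (0.0781 adjusted).

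INSIG1, which is itself an SREBP target, had 96.1, 69.9, 94.1 and 53.5 CPM in MesoT and 190 and 123 CPM in MesoT-derived MLC (log2 fold change 1.00 ± 0.30, adjusted p = 0.0861). Only SC5D, the lathosterol desaturase, and HSD17B7 had negative values, -0.51 ± 0.36 and -0.06 ± 0.23, and their groups overlapped. STARD4 also overlapped, with 158 and 103 CPM at day 18, 164 and 118 CPM at day 22 and 144 and 184 CPM in MesoT-derived MLC. HMGCS1 had 283, 219, 280 and 187 CPM in MesoT against 395 and 277 CPM, a difference of 0.47 ± 0.26 with overlap.

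**Figure D2:**
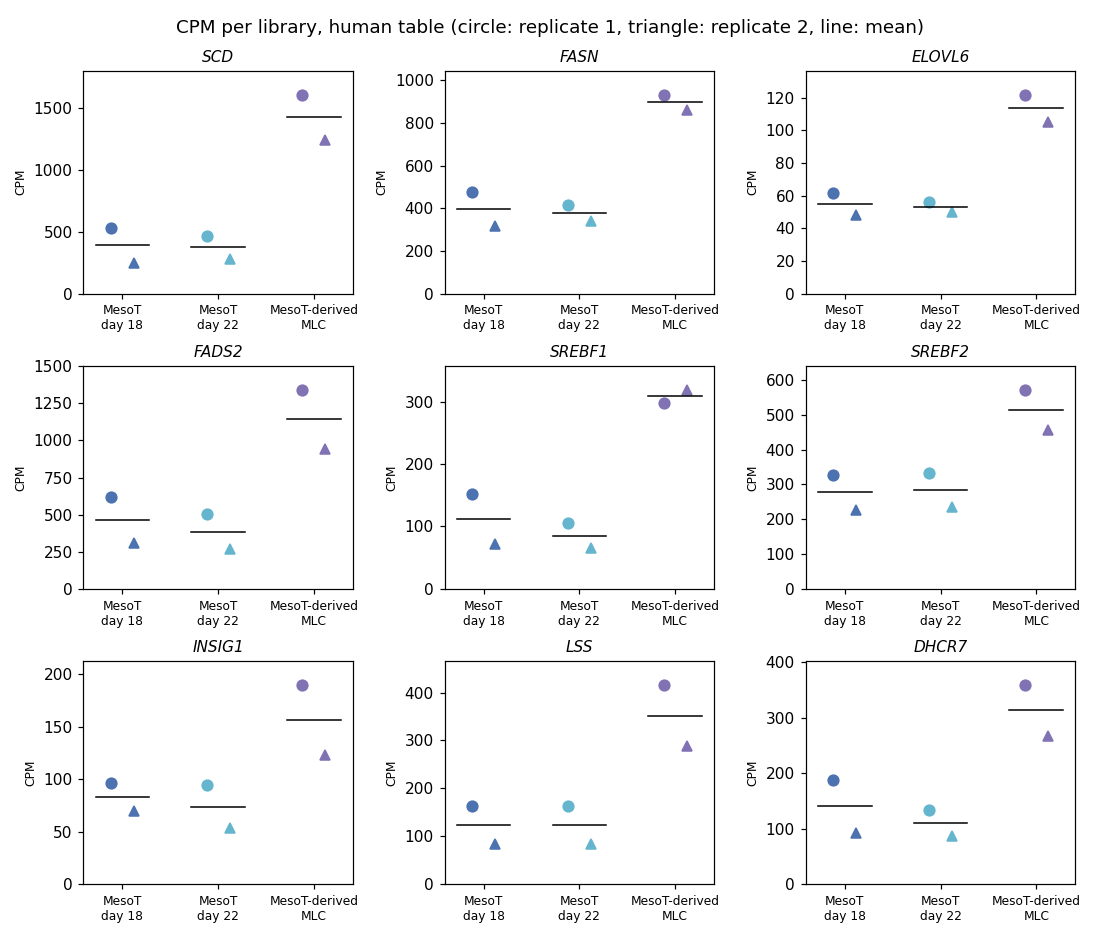
CPM of 9 genes in each library of the human table (vertical axes from 0; circles replicate 1, triangles replicate 2, lines group means). In all 9 panels both MesoT-derived MLC libraries lie above the 4 MesoT libraries, and replicate 1 lies above replicate 2 in both MesoT groups.

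The 4 calls were lost when either day 22 replicate or either MesoT-derived MLC replicate was left out. Over those 4 omissions the log2 fold change ran from 1.70 to 2.12 for SCD (adjusted p 0.0826 to 0.172), 1.52 to 1.86 for SREBF1 (0.084 to 0.209), 1.15 to 1.29 for FASN (0.0903 to 0.189) and 0.97 to 1.18 for ELOVL6 (0.0791 to 0.143). No gene of the table at all was called without day 22 replicate 1 or without MesoT-derived MLC replicate 2. DESeq2 called 15 of the 28 higher, but its share of all genes called is not given here. Most hepatocyte markers moved with this comparison: 6 of the 7 tested were called higher. The 8 listed summed to 110 and 243 CPM in MesoT-derived MLC against 2.63 to 4.98 CPM in MesoT, and none was at 0 in MesoT-derived MLC. AFP had 55.8 and 75.8 CPM in MesoT-derived MLC against 0.300 to 1.53 CPM in MesoT. ALB stayed near the floor, at 0.444 and 0.274 CPM against 0.233 to 0.291 CPM. Cell cycle genes summed to 1426 and 1086 CPM against 517 to 918 CPM with 2 of 10 called higher, and the 10 mesothelium markers to 5442 and 5937 CPM against 2723 to 4562 CPM with 5 called higher. Endothelium, neural and mesenchyme markers had 1 called lower each and smooth muscle and stratified keratinocyte markers none. The part of these lists in the result was not tested.

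MLC made directly from splanchnic mesoderm were set against day 18 MesoT. The groups differed in WNT3A, BMP4, SB431542, FGF2 and Activin A as listed, and the effects of these cannot be told apart. Here 3 of the 28 genes were called higher (FASN, ELOVL6, EBP) and 0 lower, against 7.83% of all genes called higher and 16.8% lower. The median of the 28 was 0.16, against -0.03 for all genes, and 22 of the 28 had a positive log2 fold change. FASN had 569 and 683 CPM in MLC beside the 373 and 272 CPM of day 18 (0.96 ± 0.24, edgeR adjusted p = 0.0348). ELOVL6 had 45.7 and 34.0 CPM at day 18 and 63.9 and 76.6 CPM in MLC (0.82 ± 0.20, adjusted p = 0.0338). EBP had 25.5 and 27.8 CPM at day 18 and 43.3 and 41.0 CPM in MLC (0.66 ± 0.19, adjusted p = 0.0492). In all 3 genes both MLC libraries exceeded both day 18 libraries.

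SREBF1, SREBF2 and INSIG1 had log2 fold changes of 0.16, 0.19 and 0.37 in MLC against day 18 and did not pass the test. SCD, at 423 and 213 CPM at day 18 and 412 and 592 CPM in MLC, overlapped (0.66 ± 0.37). With day 18 counts taken from the table, FASN, ELOVL6 and EBP stayed called, at 1.00, 0.70 and 0.72 (edgeR adjusted p = 0.0291, 0.0301 and 0.0273). All 3 calls were lost without either MLC replicate: FASN stood at 1.09 (adjusted p = 0.134) and 0.82 (0.219 adjusted), ELOVL6 at 0.95 and 0.68, and EBP at 0.63 and 0.70. FASN and ELOVL6 were also lost without either MesoT FCS replicate, ELOVL6 without day 18 replicate 2, and EBP without either day 18 replicate. Of 11 other settings, FASN kept its call in 10, ELOVL6 in 9 and EBP in 5. EBP was lost without the smooth muscle library (edgeR adjusted p = 0.0519), with total counts, without a low-count filter and at a mean CPM of at least 1. It was also lost with a replicate block and with only the groups compared. Cell cycle genes summed to 1440 and 1418 CPM in MLC against 412 and 655 CPM (8 of 10 called higher), and hepatocyte markers to 145 and 62.7 CPM against 3.32 and 3.28 CPM (5 of 8 called higher, none at 0 in MLC). Smooth muscle markers had 4 of 8 called lower and 1 higher, at 238 and 221 CPM against 1655 and 279 CPM, and mesothelium markers 3 of 10 higher. Neural markers had 2 of 3 tested lower, endothelium markers 2 of 5 tested, mesenchyme markers 1 of 8, and stratified keratinocyte markers none. Mitochondrial genes took 6.84% and 7.76% of MLC counts and 3.42% and 3.35% at day 18. The part of these measures in the result was not tested.

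MLC against MesoT FCS set the defined medium directly beside serum, in cells that also differ in form, route, passage and listed factors. HMGCS1 and HSD17B7, a late sterol reductase, were called higher in MLC and PMVK and ACLY lower: 2 and 2 of 28, against 22.6% and 26.3% of all genes, shares well above those of the list. HMGCS1 had 268 and 399 CPM in MLC and 125 and 72.6 CPM in MesoT FCS, 3.38-fold higher (log2 fold change 1.76 ± 0.34, edgeR adjusted p = 0.00822). HSD17B7 had 11.1 and 11.5 CPM against 6.56 and 4.08 CPM (1.09 ± 0.32, adjusted p = 0.0328). PMVK had 15.8 and 13.8 CPM against 31.1 and 33.0 CPM (-1.11 ± 0.18, adjusted p = 0.00456), and ACLY 239 and 292 CPM against 675 and 870 CPM (-1.54 ± 0.32, adjusted p = 0.0103). None of these 4 genes had overlapping groups, as is likely for called genes.

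FASN, high in both groups relative to day 18, stood at -0.49 ± 0.24 between them and did not pass (adjusted p = 0.135). SREBF1, SREBF2 and INSIG1 stood at -0.74, 0.22 and 0.11, and STARD4 at 0.88 ± 0.31 (adjusted p = 0.0599). Leaving out MLC replicate 2 ended all 4 calls, with HMGCS1 at 1.44 (adjusted p = 0.0579), HSD17B7 at 1.06 (0.141), PMVK at -1.02 (0.056) and ACLY at -1.69 (0.0617). Without MLC replicate 1 HSD17B7 and ACLY were lost, and without MesoT FCS replicate 2 HSD17B7 was lost (adjusted p = 0.109). Scaling by total counts moved the median of all genes by 0.35 and gave 9 higher and 2 lower of the 28. DESeq2 size factors gave 5 higher and 2 lower. The shares of all genes called under these 2 settings are not given here. Marker lists moved with this comparison too: hepatocyte markers had 8 of 8 called higher in MLC, at 145 and 62.7 CPM against 0.804 and 0.335 CPM, mesothelium markers 6 of 10 higher and 1 lower, and stratified keratinocyte markers 3 of 6 higher. Smooth muscle markers had 6 of 8 called lower, at 238 and 221 CPM against 6199 and 1576 CPM, and mesenchyme markers 5 of 8, at 20522 and 24439 CPM against 75719 and 86594 CPM. Cell cycle genes had 1 higher and 3 lower of 10, neural markers 2 of 3 tested lower and endothelium markers 1 each way. Mitochondrial genes took 6.84% and 7.76% of MLC counts and 2.88% and 2.48% of MesoT FCS counts. The part of these measures in the result was not tested.

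**Figure D3:**
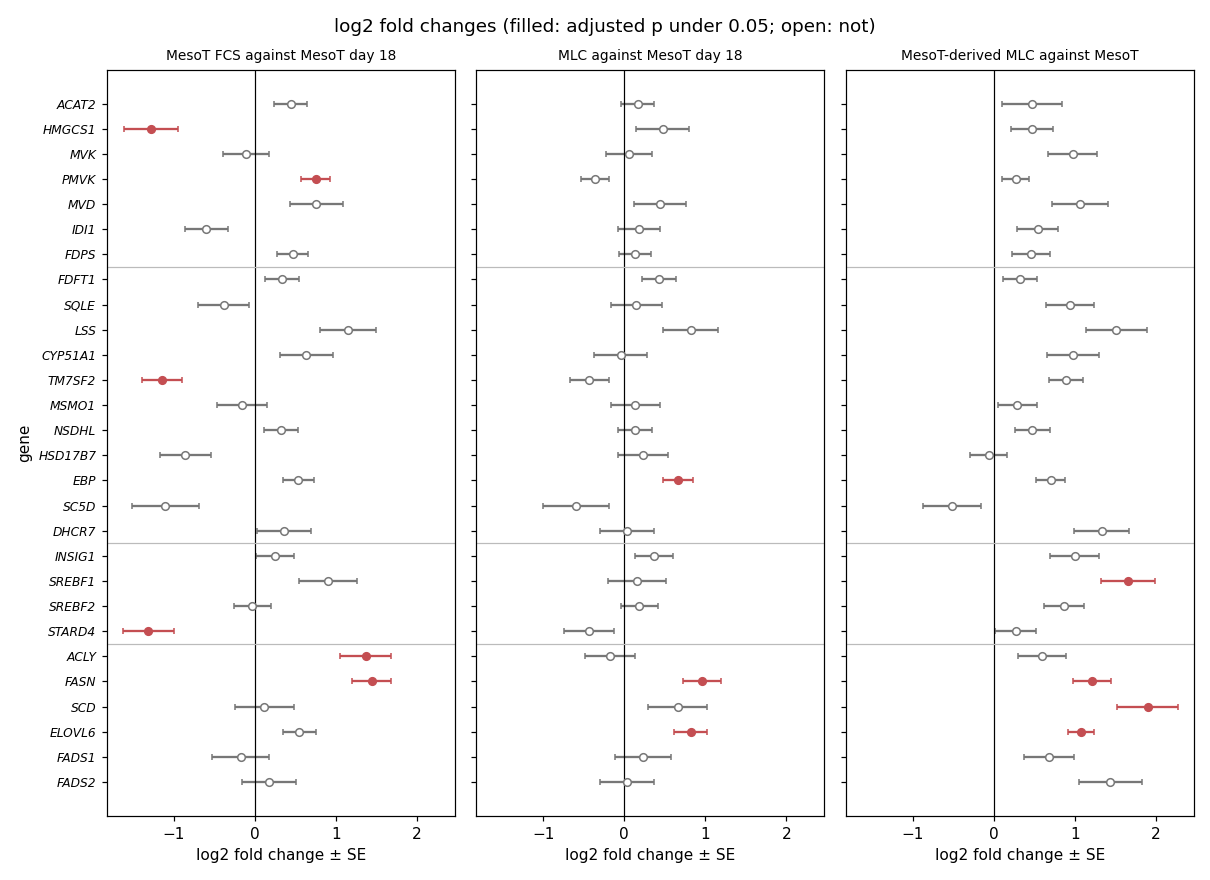
Log2 fold changes ± standard error of the 28 genes in 3 comparisons, ordered by role (mevalonate, sterol, sensing and transport, fatty acid; grey lines part the roles). Filled red points passed an adjusted p under 0.05; in the right panel 26 of 28 points lie above 0, and in the left panel called genes lie on both sides.

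In the library labelled smooth muscle, 0 of the 28 genes passed the edgeR test against day 18 in either direction. Of all genes, 5.08% were called higher and 3.58% lower. At an unadjusted p under 0.05, 9 of the 28 passed, a count near the 30.4% of all genes. DESeq2 called 5 higher and limma voom 1, but their shares of all genes called are not given here. The median of the 28 was 0.51, against -0.08 for all genes. CYP51A1, the lanosterol demethylase, had 6.44 and 4.20 CPM at day 18 and 16.3 CPM in this library (1.61 ± 0.38, adjusted p = 0.0559). MSMO1, a sterol methyl oxidase, had 104 and 80.7 CPM against 226 CPM (1.29 ± 0.36, adjusted p = 0.0783), and SC5D 112 and 53.4 CPM against 217 CPM (1.39 ± 0.48). In all 3 the single library lay above both day 18 libraries, as is likely for genes chosen by their values.

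INSIG1 had 81.9 and 63.5 CPM at day 18 and 155 CPM in the smooth muscle library (1.09 ± 0.28, adjusted p = 0.0627). SREBF2 stood at 0.71 ± 0.27 and SREBF1 at -0.34 ± 0.44. With 1 library, its spread was assumed to match that of the other groups. With day 18 counts of the human table, INSIG1 stood at 1.23 (edgeR adjusted p = 0.0237). With 1 replicate left out, the median log2 fold change of the 28 genes in this library ran from 0.24 to 0.65. Its markers did not follow the label: 0 of 8 smooth muscle markers were called, at a summed 1137 CPM against 1655 and 279 CPM, and 5 of 6 stratified keratinocyte markers were called higher, at a summed 1609 CPM against 13.8 and 11.4 CPM. Mesenchyme markers summed to 124035 CPM against 46284 and 20048 CPM, with 0 of 8 called. Mesothelium markers had 2 called higher and 2 lower of 10, endothelium and hepatocyte markers 1 higher each, and cell cycle genes 1 lower. The part of these cells in the sterol values was not tested.

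Day 22 MesoT did not separate from day 18 MesoT. None of the 28 genes passed in either direction under edgeR, DESeq2 or limma voom, and 0% of all genes were called higher and 0% lower by edgeR. At an unadjusted p under 0.05, 0 of the 28 passed, against 0.766% of all genes. Log2 fold changes ran from -0.39 ± 0.40 for SREBF1 to 0.23 ± 0.27 for HSD17B7, with a median of -0.09 against -0.01 for all genes. INSIG1 stood at -0.17 and SREBF2 at 0.04.

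**Figure D4:**
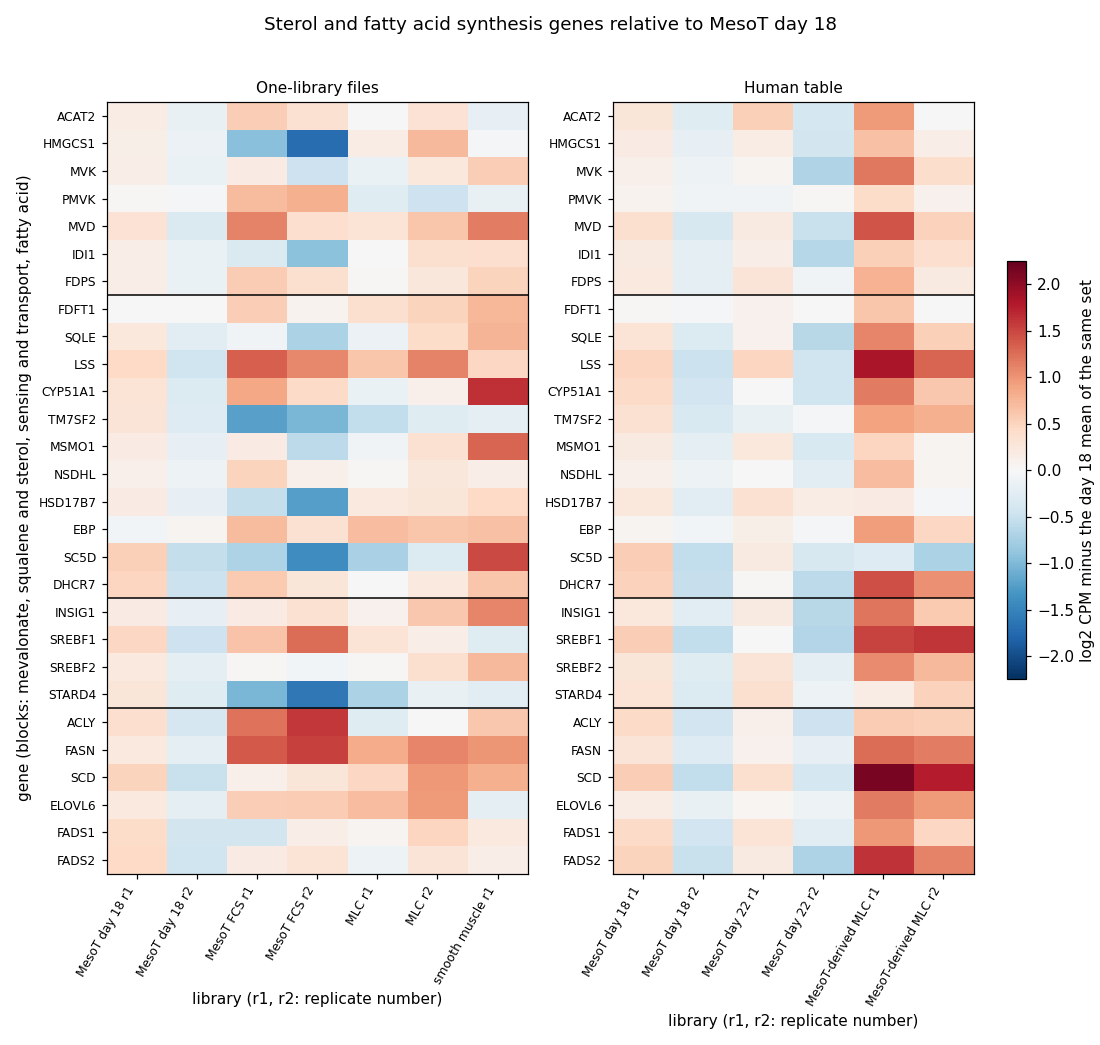
Log2 CPM of each gene minus its day 18 mean in the same set, for every library (columns; r1 and r2 are replicates) and all 28 genes (rows, parted by role). Red is higher and blue lower than day 18: MesoT FCS columns show both colours, and MesoT-derived MLC columns are red for nearly all genes.

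Most members moved together between replicates of one group, except in MesoT FCS. In the table, all 28 had a higher CPM in replicate 1 than in replicate 2 at day 18, and 26 of 28 did so at day 22 and in MesoT-derived MLC. The median log2 ratio of replicate 1 to replicate 2 was 0.56 at day 18, 0.57 at day 22 and 0.45 in MesoT-derived MLC, while over all 22316 genes it was -0.04, -0.04 and -0.0022. Day 18 of the one-library files, made from the same labelled samples, gave 26 of 28 and a median of 0.44, against -0.02 for all 23049 genes. SC5D differed most at day 18, by 1.06 in the one-library files and 1.11 in the table. MLC went the other way, with 25 of 28 higher in replicate 2 and a median of -0.31, and MesoT FCS was mixed, with 18 of 28 higher in replicate 1. Pairs of libraries have no test, and genes of one library are not independent.

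SCD at day 18 in the table, with 533 and 248 CPM, differed more between replicates than its day 18 and day 22 means did from each other. Summed mesenchyme markers ran in the same order as the list in the MesoT pairs and in MLC: 46284 and 20048 CPM at day 18 of the one-library files, 57381 and 23104 CPM at day 18 of the table, 30035 and 17403 CPM at day 22, 28942 and 18153 CPM in MesoT-derived MLC, and 20522 and 24439 CPM in MLC. In MesoT FCS, where the list was mixed, they summed to 75719 and 86594 CPM. The fatty acid genes ran in that order there, with summed 2474 and 2905 CPM, as did sensing and transport, with 518 and 575 CPM. The mevalonate and sterol steps ran the other way, with 647 and 480 CPM and 1050 and 778 CPM. Smooth muscle markers ran in the order of the list at day 18 and day 22 of the table, with 1514 and 254 CPM and 1512 and 272 CPM. They did not in MesoT-derived MLC, with 225 and 338 CPM, or in MLC, with 238 and 221 CPM. Cell cycle genes ran against the list at day 18, with 412 and 655 CPM in the one-library files. So they did at day 22, with 755 and 918 CPM, and in MLC, with 1440 and 1418 CPM. In MesoT-derived MLC they ran with the list, at 1426 and 1086 CPM. No marker list's part in the shared spread was tested.

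**Figure D5:**
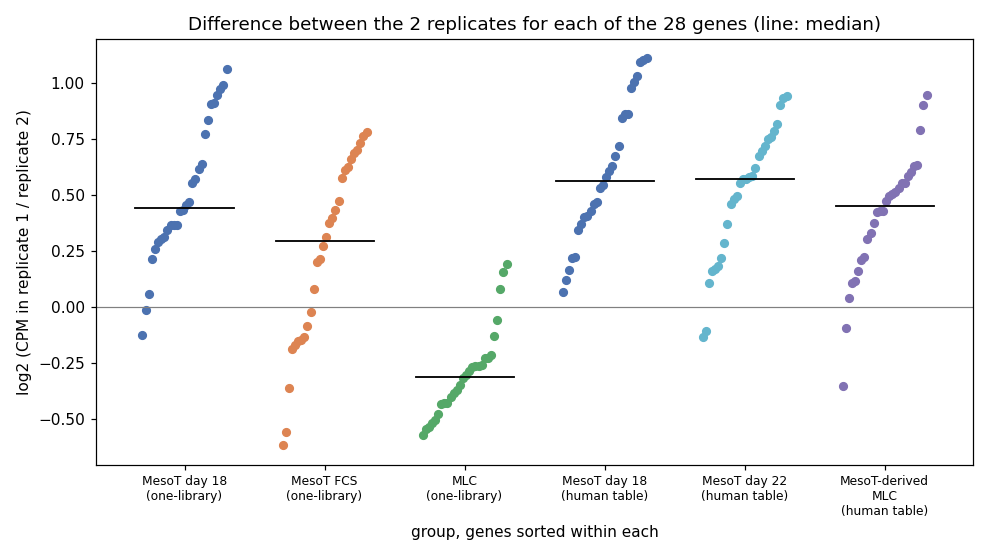
Log2 ratio of CPM in replicate 1 to replicate 2 for each of the 28 genes (points, sorted within a group) in 6 pairs of libraries, with the median as a black line. All day 18 table points lie above 0, and 25 of 28 MLC points lie below it.

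Neighbouring pathways were counted from lists of named genes, and their counts stand beside the shares of all genes called in the same comparison. In MesoT FCS, where 13.0% of all genes were called higher and 14.4% lower, of 7 genes of SREBP processing 2 were called higher and 0 lower than at day 18: ERLIN1, an endoplasmic reticulum membrane protein, at 1.21 ± 0.17 and SCAP at 0.82 ± 0.18 (edgeR adjusted p = 0.00822 and 0.0242). Of 16 genes of sterol uptake, storage and efflux, 3 were higher and 3 lower. MYLIP, whose ligase degrades lipoprotein receptors, went from 38.4 ± 3.21 to 5.87 ± 1.11 CPM (SD, n = 2; -2.71 ± 0.21, adjusted p = 0.00291), and ABCG1, a cholesterol exporter, from 4.94 ± 0.111 to 0.128 ± 0.0553 CPM (-5.27 ± 0.75, adjusted p = 0.0084). The lipoprotein receptor gene VLDLR also fell, at -2.71 ± 0.36 (adjusted p = 0.00744). The 3 higher were NR1H2, which encodes a liver X receptor (1.47 ± 0.26, adjusted p = 0.0144), SCARB1, a receptor for high-density lipoprotein (1.29 ± 0.25, adjusted p = 0.0175), and STARD3, a sterol transporter of late endosomes (1.02 ± 0.25, adjusted p = 0.0312). NR1H2 was lost without MesoT FCS replicate 2, SCARB1 without either MesoT FCS or either MLC replicate, and STARD3 without day 18 replicate 2, MesoT FCS replicate 2 or either MLC replicate. ERLIN1, MYLIP, ABCG1 and VLDLR stayed called when any single replicate was left out, and SCAP was called in 1 of 6 such fits, that without day 18 replicate 1.

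Of 22 other genes of fatty acid synthesis and elongation, 9 were called higher and 1 lower in MesoT FCS, against 13.0% and 14.4% of all genes. SLC25A1, the mitochondrial citrate carrier that feeds ACLY, stood at 1.36 ± 0.19 and HACD1, an elongation dehydratase, at 2.18 ± 0.28 (edgeR adjusted p = 0.00857 and 0.00698), and ELOVL7, an elongase, was the one lower, at -5.41 ± 0.51 (adjusted p = 0.00381). Of 24 genes of fatty acid uptake, storage and oxidation, 4 were higher and 4 lower. CPT1A, which admits fatty acids to mitochondria for oxidation, rose from 5.90 and 4.10 CPM to 36.1 and 40.9 CPM (2.94 ± 0.34, adjusted p = 0.00564), PPARD, a fatty acid receptor, rose by 1.26 ± 0.18 (adjusted p = 0.00816) and ACADL, an acyl-CoA dehydrogenase, fell from 6.29 ± 3.73 to 0.0223 ± 0.0316 CPM (adjusted p = 0.00551). These 6 calls held without any single replicate. CPT1A, however, had 19.7 and 19.5 CPM at day 18 in the human table, for the same labelled samples. Its log2 fold change ran from 1.30 to 2.95 over the alternatives other than leaving 1 replicate out. The isoprenoid branch had 1 of 10 higher (COQ2, of ubiquinone synthesis, 1.38 ± 0.26) and 1 lower (FNTA, a prenyl transferase subunit, -0.73 ± 0.14), and both were lost without either MLC replicate and without MesoT FCS replicate 2.

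In MesoT-derived MLC the calls in these lists were mostly of genes higher than in MesoT, apart from the isoprenoid branch, which had none; 6.63% of all genes were called higher and 3.32% lower. SCAP was the 1 of 7 SREBP processing genes called, at 77.9 ± 9.96 CPM in MesoT (SD, n = 4) and 159 ± 7.94 CPM (n = 2), or 1.03 ± 0.15 (edgeR adjusted p = 0.0217). Sterol uptake, storage and efflux had 3 of 16 higher and 0 lower: OSBPL1A, an oxysterol-binding protein gene, at 1.02, ABCG1 at 1.28 and VLDLR at 1.97 (adjusted p = 0.0274, 0.0402 and 0.0454). Other fatty acid synthesis had 4 of 22 higher and 0 lower, led by ACSL1, which activates fatty acids (1.49 ± 0.22), MID1IP1, which activates acetyl-CoA carboxylase (1.10 ± 0.17), and FADS3 (1.88 ± 0.36). Uptake, storage and oxidation had 5 of 23 tested higher, PPARA at 0.94 and LPIN1, a phosphatidate phosphatase, at 1.02 among them, and 1 lower, ACADL at -3.99 ± 0.51. The isoprenoid branch had 0 of 10 called by edgeR. All of the genes named for MesoT-derived MLC were lost without either day 22 replicate and without either MesoT-derived MLC replicate, like the 4 members, VLDLR also without day 18 replicate 2 and ABCG1 without any single replicate.

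In MLC against day 18, 7.83% of all genes were called higher and 16.8% lower. ACSL1 (1.25 ± 0.23) and HACD1 (1.46 ± 0.28) were the 2 of 22 higher among other fatty acid synthesis genes, MYLIP (0.84 ± 0.20) the 1 of 16 of sterol uptake, storage and efflux, and the isoprenoid branch had none of 10 (edgeR, adjusted p = 0.0133, 0.0149 and 0.0294). Uptake, storage and oxidation had 4 of 24 higher, DGAT2 of triglyceride synthesis (2.10 ± 0.40) and PPARA (0.89 ± 0.19) among them, and 3 lower, led by PPARGC1A, a coactivator of mitochondrial genes (-3.37 ± 0.46). Of SREBP processing ERLIN1 was higher (0.75 ± 0.17) and PAQR3, a Golgi tether of SCAP, lower (-0.63 ± 0.17), but PAQR3 had 35.3 and 38.0 CPM in the day 18 one-library files and 24.1 and 22.1 CPM in the table, and its value with table counts was 0.37. All 8 calls were lost without either MLC replicate, that of MYLIP also without day 18 replicate 2, and that of PAQR3 in every such omission. MLC against MesoT FCS had 1 higher and 1 lower of 7 for SREBP processing, 1 and 0 of 10 for isoprenoids, 4 and 4 of 16 for sterol uptake, 2 and 7 of 22 for other fatty acid synthesis and 5 and 5 of 24 for uptake, storage and oxidation. Of all genes 22.6% were called higher and 26.3% lower there, about the shares of sterol uptake and of uptake, storage and oxidation.

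In the smooth muscle library, where 5.08% of all genes were called higher and 3.58% lower, NPC1, which releases cholesterol from lysosomes, was the 1 of 16 called among sterol uptake genes (1.72 ± 0.37, edgeR adjusted p = 0.0447). TECR, an elongation reductase, and SLC25A1 were the 2 of 22 called higher among other fatty acid synthesis genes (1.18 ± 0.23 and 1.07 ± 0.23). PPARA (1.87 ± 0.22) and PPARD (1.18 ± 0.21) were among the 5 of 24 higher for uptake and oxidation, and ACADM, an acyl-CoA dehydrogenase, was the 1 lower (-1.23 ± 0.20). All 6 were lost without either MLC replicate, NPC1 and SLC25A1 also without either MesoT FCS replicate, and PPARD without MesoT FCS replicate 1. Only 7 genes of any kind were called without an MLC replicate.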

How the data were processed

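Poly-A RNA was sequenced from 11 human libraries. The authors deposited raw counts of reads per Ensembl gene ID, in 7 one-library files and 6 columns of a human table that holds the day 18 samples again. Per the submitters' processing notes the tools were TopHat2 2.0.13, Bowtie2 2.2.9, Subread 1.4.2 with featureCounts and MACS2 2.1.1, with build hg19; no source used here gives their roles, the annotation or the strand setting. Symbols were matched through a table of gene names.

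Each set was filtered (filterByExpr), scaled by TMM and fitted over all its libraries by group with edgeR 4.0.16 quasi-likelihood tests (R 4.3.3), without covariates and with 3 residual degrees of freedom, and p-values were adjusted over all genes tested. The standard error is the log2 fold change over the square root of F. MesoT-derived MLC were set against the mean of day 18 and day 22. The fit was tested on simulated counts. Alternatives were DESeq2 1.42.0, limma voom 3.58.1, other scalings and filters, each replicate left out, a replicate block, fits on the compared groups only, and the other set's day 18 counts. Figures used matplotlib 3.10.9.

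The members, role groups, pathway lists (SREBP processing, non-sterol isoprenoids, sterol uptake, storage and efflux, other fatty acid synthesis and elongation, fatty acid uptake, storage and oxidation), markers and tests were chosen with earlier results of these data known. Each comparison names its called members, up to 8 by smallest p, with INSIG1, SREBF1 and SREBF2 always given, and up to 3 called genes of each pathway list; other members shown nearest the threshold, and NR1H2, SCARB1 and STARD3, were chosen after their values were seen. Marker lists (cell cycle, mesothelium, mesenchyme, smooth muscle, hepatocyte, stratified keratinocyte, endothelium, neural) are given by summed CPM.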

Additional observations from a re-analysis of the deposited data

How the results depend on the processing

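No called member changed sign in any alternative, but many calls did not hold. Calls among the 28 members, by the comparison, were as follows. Here and above, counts under other settings stand without the share of all genes called in them. They therefore describe how calls depend on the fit, and not the list. MLC against day 18 (3) had 0 with a replicate block, 1 when only the groups compared were fitted, 5 with day 18 counts of the human table, and 0 to 4 when 1 replicate was left out. MesoT FCS against day 18 (6) had 3 with only the groups compared, 10 with those day 18 counts (7 higher, 3 lower), and 0 to 8 with 1 replicate left out. MLC against MesoT FCS (4) had 7 with DESeq2 size factors, with no filter, with DESeq2 and with only the groups compared, 11 with total counts, and 0 to 9 with 1 replicate left out. The smooth muscle library (0) had 3 with no filter, 1 with a mean CPM of at least 1, 5 with DESeq2, 1 with limma voom, 4 with those day 18 counts, and 0 to 6 with 1 replicate left out. MesoT-derived MLC (4) had 7 with total counts, 15 with DESeq2, 15 with a replicate block, 8 with day 18 counts of the one-library files, and 0 to 8 with 1 replicate left out. PAQR3 in MLC against day 18 reversed, from -0.63 to 0.37 with table counts. The cause of these changes was not tested.

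The replicate block gave 5 calls for MesoT FCS, 4 for MLC against MesoT FCS and 0 for day 22. Same-numbered libraries share only a number in the labels: their deviations from group means correlated at 0.067, 0.073 and 0.011 in the one-library files and at 0.56 for day 18 and day 22, -0.0077 for day 18 and MesoT-derived MLC and -0.064 for day 22 and MesoT-derived MLC. No blocked fit was made for smooth muscle, which has 1 library, and fitting only the groups compared equals the reported fit for MesoT-derived MLC. Total counts moved the median of all genes also for MLC against day 18 (-0.14), smooth muscle (-0.39) and MesoT-derived MLC (-0.16), where members minus all genes went from 0.19 to 0.21, 0.59 to 0.61 and 0.84 to 0.86. How depth and the number of libraries each limit the precision was not tested.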
